A study of Mus musculus with 7 samples.

Results

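The genes described here make and load the peptides that MHC class I molecules show at the cell surface. They are the immunoproteasome subunits Psmb8, Psmb9 and Psmb10, the proteasome activator subunits Psme1 and Psme2, the peptide transporter subunits Tap1 and Tap2, the loading factor Tapbp, the class I light chain B2m and the transcriptional activator Nlrc5. These 10 genes were chosen by name, and each was read from the transcript cluster (the set of array probes summarised into 1 value) that the platform annotation gives to that gene alone. Of the 10, 8 had such a cluster, among 14860 genes with a cluster of their own and 23332 clusters in all. The annotation assigned Psme2 only together with its near-copy Psme2b, and named no cluster for Nlrc5, so neither gene was analysed here.

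RNA came from adult, untreated FVB mice, 3 of them labelled TRAF6 transgenic (numbers 03, 04 and 05) and 4 wild-type littermates (21, 22, 23 and 24). TRAF6 is a ubiquitin ligase that carries Toll-like and interleukin-1 receptor signals to NF-kB. The promoter that drives the transgene is not given in the sources used here. Bone marrow was sorted for LSK cells, which lack lineage markers, carry Sca-1 and c-Kit and are rich in blood stem and progenitor cells, and each mouse had 1 Affymetrix exon array whose log2 values the authors made with RMA.

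Most cells degrade proteins in a proteasome whose catalytic beta subunits are constitutive. Interferon induces alternative catalytic subunits that take their places and give the immunoproteasome, which yields more peptides with the ends that class I molecules hold. The PA28 activator caps the proteasome, the TAP transporter moves peptides into the endoplasmic reticulum, and tapasin (Tapbp) holds the empty class I heavy chain and B2m at the transporter until a peptide binds. Blood cells express much of this machinery without added interferon, and Nlrc5 is the main activator of class I genes in lymphocytes.

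Psmb9 and Tap1 lie head to head and are read outward from the stretch between them. RefSeq promoter windows (assembly GRCm38.p6, strain C57BL/6J, not FVB) were found for 8 of the 10 genes, and Tap2 and Nlrc5 had none in the table used. The 225 bases between the annotated starts of Psmb9 and Tap1 are shown because both genes stood higher on the arrays labelled transgenic. The 250 bases before B2m are shown because that gene did not. Capitals mark matches, on either strand, to an interferon regulatory factor core (AANNGAAA), a gamma-activated site (TTCNNNGAA), an NF-kB motif (GGANTTTCC), a CCAAT box (ATTGG) or a cyclic-AMP response element core (TGACG).
Psmb9 to Tap1, chr17:34187331-34187555, plus strand, with the start of Tap1 at the right end: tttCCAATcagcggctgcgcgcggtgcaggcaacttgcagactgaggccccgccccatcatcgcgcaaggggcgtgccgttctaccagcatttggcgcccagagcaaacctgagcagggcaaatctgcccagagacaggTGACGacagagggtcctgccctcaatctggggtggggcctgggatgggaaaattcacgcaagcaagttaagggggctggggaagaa
B2m, chr2:122147437-122147686, plus strand, ending at the start of B2m: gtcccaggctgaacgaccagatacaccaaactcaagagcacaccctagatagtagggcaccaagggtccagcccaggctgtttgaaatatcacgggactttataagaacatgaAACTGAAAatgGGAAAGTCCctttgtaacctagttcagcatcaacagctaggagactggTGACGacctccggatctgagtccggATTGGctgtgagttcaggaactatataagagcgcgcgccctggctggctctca

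The B2m stretch held AACTGAAA, an NF-kB match on the minus strand (GGAAAGTCC as written), a TGACG and an ATTGG, with no overlap between them. The stretch shared by Psmb9 and Tap1 held a CCAAT and a TGACG. Among 32851 promoter windows of 300 bases, 23.9% held the interferon regulatory factor core, 8.3% the gamma-activated site, 1.25% the NF-kB motif, 37.4% the CCAAT box and 20.8% the TGACG core. Of the other members, the Psme1 window held 2 overlapping interferon regulatory factor cores just after its start and the Psmb8 window the gamma-activated site. The Tapbp window held 2 CCAAT boxes, both Psme2 windows a TGACG, and the Psmb10 window held none of these letters. A match is a run of letters and was not tested as a binding site.

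Several facts touch every comparison below. Traf6 had 8.06, 8.14 and 7.52 on labelled transgenic arrays 03, 04 and 05, against 7.95, 8.20, 8.12 and 8.33 in wild type, a difference of -0.24 (SE 0.18, limma adjusted p = 0.676), so the array gave no check of the genotype label. The Y-linked gene Eif2s3y had values of 2.91 to 3.05 with the transgenic label, against 8.05 to 8.64 in wild type. Genotype label therefore cannot be told apart from Y-linked signal, nor from the sex of the mice, which such signal marks. Array medians ran from 5.98 to 6.17 with the transgenic label and from 6.09 to 6.21 in wild type, and array 05 had the lowest median and the lowest correlation with the others (mean 0.966). In a sorted population a shift in the share of a cell type and a shift in RNA per cell cannot be told apart either. The labels do not say whether mice came from separate litters, so p-values measure the spread between these mice, and the precision is limited by how few arrays there are.

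The 3 catalytic subunits of the immunoproteasome stood higher on every labelled transgenic array than on every wild-type array. Psmb10, which carries the trypsin-like site and takes the place of Psmb7, had log2 values of 9.37, 9.32 and 9.32 on arrays 03, 04 and 05, against 8.95, 8.98, 8.95 and 8.93 on wild-type arrays 21, 22, 23 and 24. The values lay close together within each group, and the gap between the groups was much wider than either group's spread. The difference was 0.38 (SE 0.09, 95% interval 0.18 to 0.59), or 1.30-fold, with a limma adjusted p = 0.315. The within-group SD of Psmb10 was 0.0231, and only 0.0343% of all clusters had a smaller one, against a median of 0.214 over all clusters. Limma's moderation raises so small a spread toward that of the other clusters. Unmoderated least squares, which uses the gene's own spread, gave an adjusted p = 0.0222, and that setting alone among those tried took Psmb10 past the threshold. In that setting 4 of all 23332 clusters passed.

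Psmb8, which carries the chymotrypsin-like site and takes the place of Psmb5, had 9.92, 9.94 and 9.74 on labelled transgenic arrays 03, 04 and 05, against 9.61, 9.58, 9.53 and 9.57 on wild-type arrays 21 to 24. The groups did not overlap, and array 05 was the lowest of its group. The difference was 0.29 (SE 0.10, 95% interval 0.06 to 0.52), or 1.22-fold, with an adjusted p = 0.411. Psmb9, which takes the place of Psmb6, had 11.37, 11.28 and 11.44 on the arrays labelled transgenic, against 11.06, 11.11, 10.88 and 11.18 in wild type. Here array 05 was the highest of all 7, and wild type 23 was the lowest. The difference was 0.30 (SE 0.11, 95% interval 0.04 to 0.56), or 1.23-fold, with an adjusted p = 0.437.

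Psme1, the alpha subunit of the PA28 activator, followed with 9.66, 9.76 and 9.60 on labelled transgenic arrays 03, 04 and 05, against 9.43, 9.40, 9.48 and 9.48 on wild-type arrays 21 to 24. No labelled transgenic value reached down to the wild-type range. Its difference was 0.23 (SE 0.10, 95% interval 0.01 to 0.45), or 1.17-fold, with an adjusted p = 0.473. Psme3, which forms another proteasome cap, averaged 10.22 ± 0.17 (SD, n = 3) with the transgenic label and 9.94 ± 0.11 (SD, n = 4) in wild type, and its groups overlapped.

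The transporter subunits were less uniform. Tap1 had 8.69, 8.59 and 8.58 on the arrays labelled transgenic, against 8.45, 8.37, 8.30 and 8.56 in wild type. The groups were apart by a narrow margin, set by array 05 and wild type 24. The Tap1 difference was 0.20 (SE 0.11, 95% interval -0.05 to 0.45, adjusted p = 0.563). Tap2, its partner in the transporter, had 7.99, 8.12 and 7.43 on labelled transgenic arrays 03, 04 and 05, against 7.69, 7.56, 7.55 and 7.74 in wild type. Arrays 03 and 04 were above all wild-type arrays and array 05 was below all of them. The Tap2 difference was 0.21 (SE 0.17, 95% interval -0.20 to 0.62, adjusted p = 0.719). It was 0.42 without array 05, 0.14 without array 03 and 0.07 without array 04, and 0.41 with array weights, which count array 05 least.

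Tapbp and B2m, which act at the last steps of loading, did not separate the groups. Tapbp had 9.01, 9.02 and 9.08 with the transgenic label, against 9.08, 8.95, 8.88 and 8.96 in wild type, a difference of 0.07 (SE 0.10, 95% interval -0.16 to 0.30, adjusted p = 0.848). B2m, the light chain that every classical class I molecule needs, had 12.53, 12.45 and 12.36 on labelled transgenic arrays 03, 04 and 05, against 12.54, 12.53, 12.53 and 12.60 in wild type. It was the only measured member with a difference below 0, at -0.10 (SE 0.09, 95% interval -0.32 to 0.12, adjusted p = 0.750). Array 03 lay just inside the wild-type range, and arrays 04 and 05 lay below it. After centring each array on its median the B2m difference was -0.04, and without array 05 it was -0.06.

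**Figure D1:**
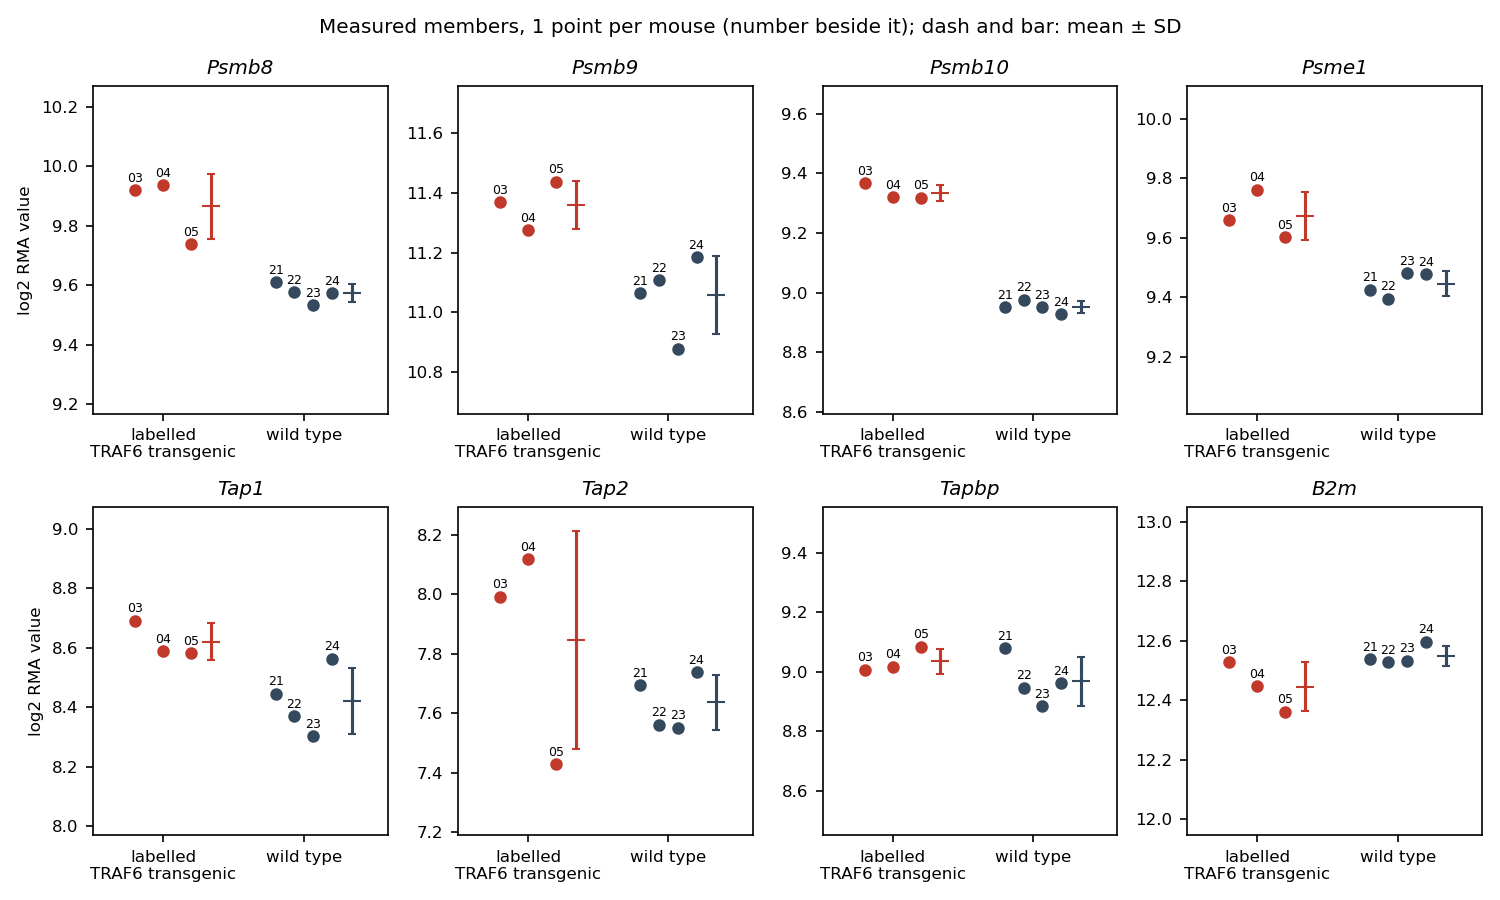
Log2 RMA values of the 8 measured class I pathway genes, 1 panel per gene, with 1 point per mouse (its number beside it), labelled TRAF6 transgenic left and wild type right, and the mean ± SD of each group beside its points. Each vertical axis spans the same number of log2 units and does not start at 0. Psmb8, Psmb9, Psmb10, Psme1 and Tap1 show groups that do not overlap, while Tap2 is split by array 05 and B2m runs slightly the other way.

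Set against the whole table, 0 of 8 measured members passed limma's adjusted threshold of 0.05 (0.0214% of all clusters did). At an unadjusted p under 0.05, 4 of 8 were higher (Psmb8, Psmb9, Psmb10 and Psme1) and 0 were lower, where 5.22% of all clusters were higher and 5.05% lower. That count was 1 without array 03 or without wild type 23, and 2 without array 04 or without wild type 21, where 2.99% to 4.67% of all clusters were higher, with fewer arrays in the fit. Groups did not overlap, with the labelled transgenic arrays higher, in 5 of 8 members and in 5.17% of all clusters, and with these arrays lower in 0 of 8 members and in 5.18% of all clusters. Differences were above 0 in 7 of 8 members and in 49.7% of all clusters. The median difference of the measured members was 0.22, against -0.0018 over all clusters. The members share a pathway and 5 of the 8 share a stretch of chromosome 17, so they are not independent of each other.

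Exact two-sided permutation tests over the 35 ways to draw 3 of 7 arrays gave p = 0.0286, unadjusted and the smallest this design allows, for each of Psmb8, Psmb9, Psmb10 and Psme1. The same exact test gave p = 0.0571 for Tap1 and for B2m, 0.286 for Tapbp and 0.343 for Tap2. Within the labelled transgenic group, array 03 stood 0.24 above the wild-type mean when averaged over the 8 members, array 04 stood 0.23 above it and array 05 stood 0.12 above it. Wild-type arrays ran from -0.06 to 0.05 on the same measure. Array 05 was highest of all 7 in Psmb9 and Tapbp and lowest of all 7 in Tap2 and B2m.

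Each inducible catalytic subunit was then set against the constitutive subunit whose place it takes, as a difference within each array. Psmb5 had no cluster of its own, so 2 of the 3 pairs could be compared. Psmb9 minus Psmb6 was -0.11, -0.17 and 0.06 on labelled transgenic arrays 03, 04 and 05, against -0.28, -0.21, -0.41 and -0.33 in wild type. The groups did not overlap, and the shift between them was 0.23 (exact permutation p = 0.0571, adjusted over 2 pairs p = 0.114). Psmb6 itself differed by 0.07 (SE 0.10, adjusted p = 0.853). Psmb10 minus Psmb7 was -0.88, -1.03 and -0.68 on the arrays labelled transgenic, against -0.73, -1.11, -1.11 and -0.84 in wild type. These groups overlapped, with a shift of 0.08 (exact permutation p = 0.514, adjusted p = 0.514) that became -0.005 without array 05. Psmb7, the subunit that Psmb10 replaces, differed by 0.30 (SE 0.15, adjusted p = 0.541). With 35 assignments and 2 pairs, the Psmb9 pair could not have gone below an adjusted p = 0.0571 beside the value of the Psmb10 pair, so missing the threshold says nothing about that pair. After quantile normalization the Psmb9 pair gave an exact permutation p = 0.0286, the smallest the design allows (adjusted p = 0.0571).

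**Figure D2:**
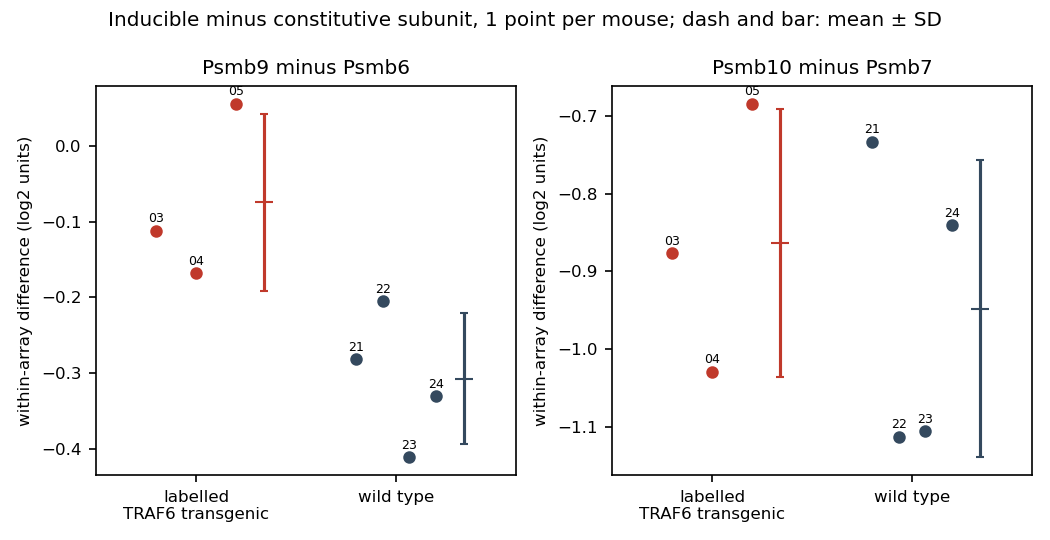
Within-array difference in log2 units between an immunoproteasome subunit and its constitutive counterpart, 1 point per mouse (its number beside it), labelled TRAF6 transgenic left and wild type right, with mean ± SD. Psmb9 minus Psmb6 runs from -0.17 to 0.06 with the transgenic label and from -0.41 to -0.21 in wild type, while the groups overlap for Psmb10 minus Psmb7.

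The rest of the proteasome was also mostly on the higher side. Of 14 constitutive core subunit genes, 10 had a cluster of their own, of which 9 were higher and 1 was lower, with a median difference of 0.14. None passed the adjusted threshold, and none had an unadjusted limma p under 0.05. Groups did not overlap, with the labelled transgenic arrays higher, in 3 of them (5.17% of all clusters), Psma7 (0.21, SE 0.11), Psmb1 (0.20, SE 0.10) and Psmb4 (0.10, SE 0.10), the last named after its values were seen. Of 11 assembly factors and other proteasome regulators, 8 were measured, of which 6 were higher, with a median of 0.17. The assembly chaperone gene Psmg3 averaged 7.62 ± 0.11 (SD, n = 3) with the transgenic label and 7.12 ± 0.21 (SD, n = 4) in wild type, a difference of 0.50 (SE 0.14, adjusted p = 0.362). It was the 1 gene of the 8 with an unadjusted p under 0.05, where 5.22% of all clusters were higher. Psmg1, another assembly chaperone gene, differed by 0.30 (SE 0.16) and Psme3 by 0.28 (SE 0.12), both with overlapping groups.

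**Figure D3:**
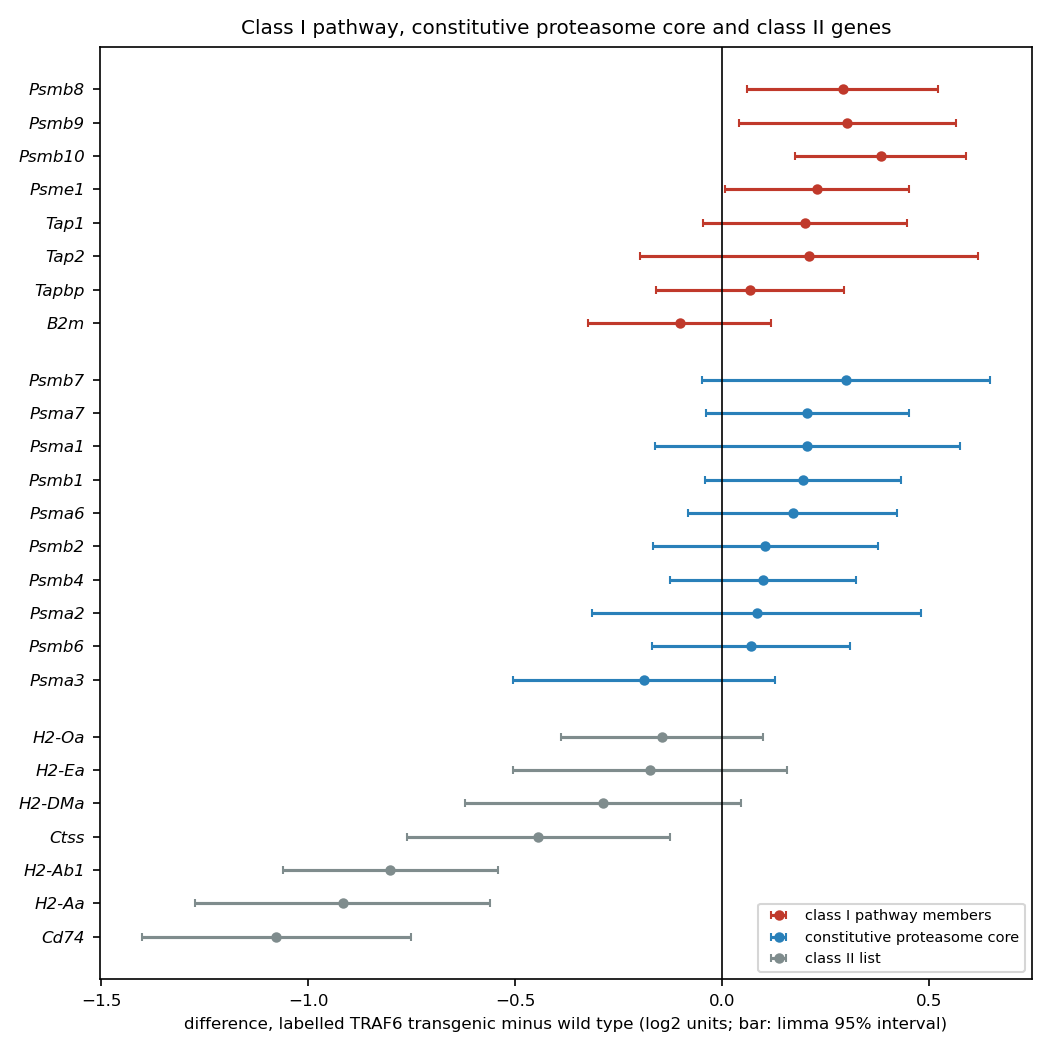
Difference in log2 units, labelled TRAF6 transgenic minus wild type, with limma 95% intervals, for the 8 measured class I pathway genes, the 10 measured constitutive core subunits and the 7 measured class II list genes. Psmb8, Psmb9, Psmb10 and Psme1 have intervals wholly above 0, every constitutive subunit has an interval that crosses 0, and Ctss, H2-Ab1, H2-Aa and Cd74 have intervals wholly below 0.

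Other steps of peptide supply and loading were measured through a list of 19 genes, of which 17 had a cluster. Of these 13 were higher and 4 lower, with a median of 0.13 and 0 past the adjusted threshold. At an unadjusted p under 0.05, 1 of 17 was higher, a share near the 5.22% of all clusters. That gene was Thop1, a cytosolic peptidase that trims and destroys peptides, with 7.60, 7.53 and 7.40 on labelled transgenic arrays, against 7.13, 7.06, 7.02 and 7.06 in wild type. Its groups did not overlap, with a difference of 0.44 (SE 0.10, adjusted p = 0.292). Without overlap, 2 of 17 were higher, Thop1 and Calr (0.17, SE 0.10), and 0 were lower, where 5.17% of all clusters were higher and 5.18% lower. The cytosolic peptidase genes Lap3 (0.28, SE 0.13) and Blmh (0.28, SE 0.12) had overlapping groups. Of 25 class I heavy chain and related genes only 4 had a cluster of their own, and the classical heavy chain genes H2-K1, H2-D1 and H2-L were not among them. The 4 had a median of -0.20, with 1 higher, 3 lower and 0 at an unadjusted p under 0.05. Mr1, which presents metabolites to innate-like T cells, differed by -0.39 (SE 0.18), the neonatal Fc receptor gene Fcgrt by -0.26 (SE 0.16) and H2-Q10 by -0.14 (SE 0.11).

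Genes that control class I transcription lay on both sides of 0. Of 28 listed, 25 were measured, of which 10 were higher and 15 lower, with a median of -0.01. At an unadjusted p under 0.05 there was 1 higher and 1 lower, near the shares of all clusters (5.22% higher and 5.05% lower), and 0 passed the adjusted threshold. Irf1, an interferon-induced factor that activates immunoproteasome and TAP genes, had 9.31, 9.24 and 9.78 with the transgenic label, against 9.49, 9.32, 9.36 and 9.09 in wild type (difference 0.13, SE 0.17, adjusted p = 0.834). Only array 05 lay above the wild-type range. Rfx5, which binds class I and class II promoters, differed by -0.06 (SE 0.16, adjusted p = 0.926). Rela, an NF-kB subunit, averaged 10.12 ± 0.15 (SD, n = 3) with the transgenic label and 10.49 ± 0.10 (SD, n = 4) in wild type, a difference of -0.37 (SE 0.12, adjusted p = 0.390) with groups that did not overlap. The kinase gene Tyk2, which serves interferon receptors, differed by 0.34 (SE 0.13, adjusted p = 0.455), also without overlap. Irf3 differed by 0.28 (SE 0.13) with overlap. Without overlap, 1 of the 25 was higher (Tyk2) and 2 were lower (Rela and Socs1), where 5.17% of all clusters were higher and 5.18% lower. Ciita had no cluster of its own.

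Genes induced by interferon-gamma, the cytokine best known for inducing the immunoproteasome, were evenly split. Of 22 listed, 14 were measured, of which 7 were higher and 7 lower, with a median of -0.01. Irgm1, an interferon-inducible GTPase, had 7.58, 7.31 and 7.71 on labelled transgenic arrays, against 6.79, 6.78, 7.05 and 7.31 in wild type, so its groups met at array 04 and wild type 24. It differed by 0.55 (SE 0.17, adjusted p = 0.384) and was the 1 gene of the 14 with an unadjusted p under 0.05, a share near the 5.22% of all clusters that were higher. Socs1, an interferon feedback inhibitor, differed by -0.25 (SE 0.12) without overlap, and the guanylate-binding protein gene Gbp7 by 0.17 (SE 0.11) with overlap. Without overlap, 1 of the 14 was higher (Gbp5, 0.13) and 1 was lower (Socs1), where 5.17% of all clusters were higher and 5.18% lower.

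Psmb9, Tap1, Psmb8 and Tap2 sit side by side inside the class II region of the MHC, and the measured class II genes on either side of them stood below 0. In RefSeq order, 26 protein-coding genes run from Tapbp to H2-Eb1, of which 21 had a cluster of their own and 5 were members. This stretch was taken up after the values were seen, and no test was made of it. The 4 adjacent members lay between 0.20 and 0.30. The nearest measured gene on one side, H2-DMa, which edits class II peptides, differed by -0.29 (SE 0.14, adjusted p = 0.537). On the other side H2-Ab1, a class II beta chain, had 7.23, 7.40 and 7.40 on labelled transgenic arrays, against 8.07, 8.12, 8.32 and 8.07 in wild type (difference -0.80, SE 0.11, adjusted p = 0.279). H2-Aa, the matching alpha chain, differed by -0.92 (SE 0.15, adjusted p = 0.279). Nearer to Tapbp, outside the class II genes, Pfdn6, Wdr46 and H2-Ke6 were higher by 0.34, 0.35 and 0.28 with groups that did not overlap, and Ring1 differed by -0.25, also without overlap. Vps52 (0.34), Slc39a7 (0.29) and Rps18 (-0.40) differed by similar amounts with groups that overlapped. Of all clusters, 5.17% were higher and 5.18% lower without overlap.

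**Figure D4:**
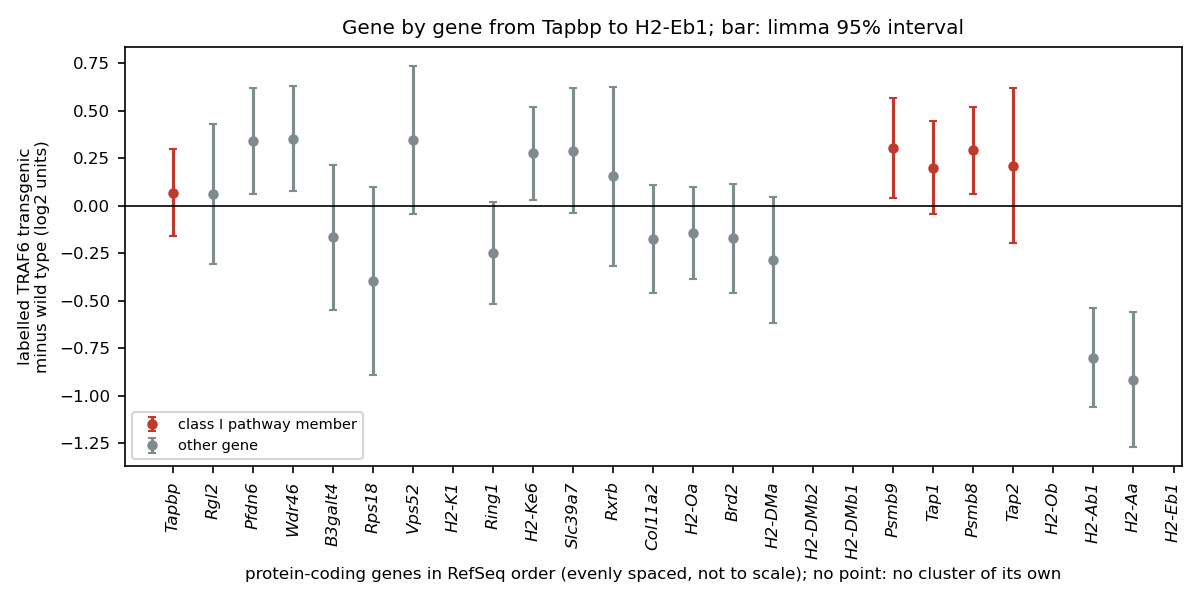
Difference in log2 units, labelled TRAF6 transgenic minus wild type, with limma 95% intervals, for protein-coding genes in their RefSeq order from Tapbp to H2-Eb1, evenly spaced and not to scale. Class I pathway genes are in red and others in grey, and genes without a cluster of their own have no point. The 4 adjacent members lie between 0.20 and 0.30, and H2-Ab1 and H2-Aa lie at -0.80 and -0.92.

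All 7 measured genes of the 12 in the class II list were lower, with a median of -0.44. At an unadjusted p under 0.05, 4 were lower, against 5.05% of all clusters. Averaged over these 7 genes, labelled transgenic arrays stood between 7.62 and 7.73 and wild-type arrays between 8.16 and 8.30. Cd74, the invariant chain that guards class II molecules, differed by -1.08 (SE 0.14, adjusted p = 0.227). On arrays 03, 04 and 05 alike, Psmb8, Psmb9, Psmb10, Psme1 and Tap1 were thus above the wild-type range and Cd74, H2-Ab1 and H2-Aa were below it. That the class II genes were low on these arrays was known when the list was drawn up.

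Markers of other blood cells that a sort could hold were also read, and their part in the result was not tested. Of 7 B cell markers 5 were measured, averaging 5.59 to 5.76 with the transgenic label and 5.91 to 6.27 in wild type. At an unadjusted p under 0.05, 3 of these 5 were lower, Ebf1 (-1.43), Cd79a (-0.67) and Pax5 (-0.66), each with groups that did not overlap, and 1 was higher, Cd79b (0.41), with overlap. Of all clusters, 5.05% were lower and 5.22% higher at this threshold, and 5.18% were lower without overlap. All 7 T cell markers averaged 4.94 to 5.17 against 4.98 to 5.30 in wild type, with 2 higher and 5 lower. At an unadjusted p under 0.05, 1 of the 7 was lower, Cd4 (-0.32). Without overlap 2 were lower, Cd4 and Cd5 (-0.12). NK cell markers (4 of 5) averaged 5.91 to 6.04 against 5.83 to 6.10, with 0 at an unadjusted p under 0.05. Of 9 macrophage and dendritic cell markers 8 averaged 5.11 to 5.15 with the transgenic label and 4.98 to 5.23 in wild type. Neutrophil markers (5 of 6) averaged 4.53 to 4.87 against 4.69 to 4.99 in wild type, and erythroid markers (3 of 6) 6.45 to 6.67 against 6.29 to 6.42. The LSK list averaged 8.47 to 8.97 with the transgenic label and 8.84 to 9.02 in wild type over 5 of 7 genes, while Ly6a, the gene of Sca-1, had no cluster of its own. Within it Flt3, a receptor of early lymphoid progenitors, differed by -0.67 (SE 0.13, adjusted p = 0.283) with groups that did not overlap, and Procr by -0.44, Cd34 by -0.13, Kit by -0.05 and the stem cell marker Slamf1 by 0.26, all with overlap. RMA values have no true zero, so no marker can be called absent.

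The genes whose profiles over the 7 arrays lay nearest to the mean profile of the 8 members were found by root mean square distance, after centring each gene on its own mean, among 14852 other genes. In order they were Olfr1008 (distance 0.0192 log2 units), Helq (0.0208), Dele1 (0.0217), Ppp1ca (0.0332) and Znhit2 (0.0342). Their differences between the groups ran from 0.14 to 0.21, which follows from choosing them by closeness to that profile on the same arrays. Olfr1008, an olfactory receptor gene, was measured at 2.45 to 2.78 on all arrays, near the bottom of the scale. Among the members themselves the distance from this mean profile was smallest for Tap1 (0.0522) and Psme1 (0.0546), and largest for B2m (0.151) and Tap2 (0.164).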

How the data were processed

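The authors used RMA, per the submitters' processing notes, to make the deposited log2 value of each cluster on each array, and mm9 is the build named there. Their scale was read from a range of 1.28 to 14.03. Settings, probe filters and annotation release are not given in the sources used here. All 23332 clusters of 7 arrays were fitted with limma 3.58.1 (lmFit, eBayes) in R 4.3.3, with genotype as the only term, two-sided, and Benjamini-Hochberg adjustment over all clusters at 0.05. Differences are labelled TRAF6 transgenic minus wild type. The platform annotation gave 14996 clusters 1 symbol, 1019 several and 7317 none. Through Entrez identifiers 0 symbols changed and 55 clusters had no RefSeq match.

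The members and lists were chosen with earlier results of these data known. Named were all members, their constitutive counterparts, up to 3 genes per other list by smallest unadjusted p, Irf1, Rfx5, Ciita, H2-K1, H2-D1, the checks Traf6, Eif2s3y and Kdm5d, and the 5 nearest profiles. Other genes were named after their values were seen. Kdm5d, a second Y-linked gene, averaged 4.06 with the transgenic label and 6.68 in wild type. On simulated data of 23332 clusters the fit recovered 0 of 50 clusters changed by 0.3 and 5 of 50 changed by 0.585 log2 units. It recovered 28 of 50 changed by 1 and 39 of 50 changed by 2, with 2 calls among 23132 unchanged clusters. The changed clusters were picked at random, each with its own SD and independent of the others. Only Tap2 among the members had a within-group SD (0.2425) above the median of all clusters (0.2141), so these counts do not describe the members. Figures used matplotlib 3.10.9 in Python 3.11.15.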

Additional observations from a re-analysis of the deposited data

Results flagged for a closer look

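B2m on wild type 24 stood apart from its group, at 12.60 against 12.53 to 12.54 on the other 3 wild-type arrays, with a gap of 0.843 of the group's range (above Dixon's 95% limit for 4 samples). Of 53 genes looked at in this way 1 was marked, and chance marks about 1 group in 20.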

How the results depend on the processing

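No paired analysis was possible because mice of the 2 groups share no replicate number. The alternatives were quantile normalization, centring on array medians, a low-signal filter at the 40th percentile, array weights, a robust prior with intensity trend, 1 cluster per gene, unmoderated least squares, a threshold of 0.1 and leaving out each array. No member had several clusters, so the choice of cluster gave no alternative. Over these, each member kept the sign of its difference, with Psmb10 between 0.37 and 0.44, Psmb9 between 0.24 and 0.36, Psmb8 between 0.25 and 0.35, Psme1 between 0.19 and 0.29, Tap1 between 0.16 and 0.26, Tap2 between 0.07 and 0.42, Tapbp between 0.04 and 0.13 and B2m between -0.14 and -0.04. Adjusted p for Psmb10 ran from 0.0222 to 0.633, and with unmoderated least squares 1 member passed 0.05, against 0 in every other setting. Of all 23332 clusters, 4 passed with unmoderated least squares. The count of members higher at an unadjusted p under 0.05 ran from 3 to 6 with all 7 arrays and from 1 to 4 on leaving out 1 array. The share of all clusters higher at this threshold moved too, from 5.22% to 13.1% with all 7 arrays (13.1% with array weights, where the count was 6) and from 2.99% to 11.7% on leaving out 1 array (11.7% without array 05, where the count was 4). Members higher without overlap numbered 4 after quantile normalization and 5 after centring on array medians. On leaving out 1 array they numbered 5 to 6. That count could not have fallen, since removing an array cannot make separate groups overlap, so it says nothing about stability. The matching shares of all clusters are not given for these settings. The median difference of the members ran from 0.20 to 0.28, and from 0.20 to 0.26 on leaving out 1 array. The median over all clusters moved too, from -0.0018 to 0.056 with all 7 arrays and from -0.0277 to 0.0371 on leaving out 1. It was 0.056 with median centring, 0.0246 with array weights and 0.0371 without array 05, where the members' median was 0.277, 0.279 and 0.2645. The shift of Psmb9 minus Psmb6 ran from 0.17 to 0.28, and that of Psmb10 minus Psmb7 from -0.005 (without array 05) to 0.17. With 6 arrays the exact test of a pair cannot go below 0.0667 when a labelled transgenic array is left out, or below 0.1 when a wild-type array is. The number of arrays limits all of these.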
